A study of Mus musculus with 6 samples.

Results

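The transcripts described here are those of Tfrc, the transferrin receptor gene, and of 9 other genes that move, store and sense iron (Fth1, Ftl1, Slc40a1, Slc11a2, Ireb2, Aco1, Fbxl5, Steap3 and Ncoa4). They are 10 of the 55367 gene symbols in the deposited table. The set was selected on the measured rise of Tfrc, the largest among well-expressed genes when STM2457 was set against DMSO, so that rise is a description and no test of it is given. The other 9 were listed around it as genes of iron handling. RNA sequencing was done on LLC cells, which are derived from a mouse Lewis lung carcinoma, are labelled wild type and were grown in medium with serum. One group of 3 libraries came from cells given STM2457 at 5 µM for 46 h, and the other of 3 libraries from cells given DMSO, the solvent, for the same time. STM2457 is a small-molecule inhibitor of METTL3, which writes N6-methyladenosine on RNA. The enzyme's activity was targeted, not its gene. Whether the 3 libraries of a group were grown as separate cultures is not in the labels. The p-values therefore cover only the spread between the libraries, and it may be technical.

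Cells take up iron by binding iron-loaded transferrin to the transferrin receptor at the surface and carrying it into endosomes. There the iron is reduced by STEAP3 and passes to the cytosol through the transporter encoded by Slc11a2. Iron that is not used is held inside ferritin, a shell of heavy and light chains (Fth1 and Ftl1), which NCOA4 delivers to lysosomes when iron is needed, and ferroportin (Slc40a1) is the exporter. The iron regulatory proteins encoded by Aco1 and Ireb2 bind hairpins called iron-responsive elements when iron is scarce. Bound after the coding part, as in Tfrc, they protect the transcript from decay, and bound before it, as in the ferritins, they block translation. FBXL5 marks the IREB2 protein for destruction when iron is plentiful.

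The hairpins are shown because they are a feature that ties some of these transcripts to iron. Annotated mouse transcripts of the GRCm38 build were searched outside their coding parts, in the sense of the transcript, for the letters CNNNNNCAGTGN followed by 5 bases that pair with the 5 bases marked N after the first C (G-T pairs allowed; 1 strand only). In all, 4 such stretches lie in the 3' UTR of Tfrc and 1 lies in the 5' UTR of each of Fth1, Ftl1 and Slc40a1. The bulged C and the loop letters CAGTG are in capitals.
Tfrc, chr16:32631220-32631246, plus strand: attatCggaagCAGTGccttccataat
Tfrc, chr16:32631599-32631625, plus strand: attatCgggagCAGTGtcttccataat
Tfrc, chr16:32631664-32631690, plus strand: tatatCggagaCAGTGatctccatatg
Tfrc, chr16:32631711-32631737, plus strand: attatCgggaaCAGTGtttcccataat
Fth1, chr19:9982733-9982759, plus strand: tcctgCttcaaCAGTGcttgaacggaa
Ftl1, chr7:45459780-45459806, minus strand: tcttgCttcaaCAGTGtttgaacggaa
Slc40a1, chr1:45925466-45925492, minus strand: aacttCagctaCAGTGttagctaagtt

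In the 4 Tfrc hairpins and in that of Slc40a1 the 5 outer bases on each side pair as well, and in the 2 ferritin hairpins 4 of the 5 outer pairs form. The Tfrc hairpins span 518 bases of the 3' UTR, the first of them starting after 883 bases of it. Of 21877 coding genes scanned, 31 (0.142%) held such letters in a 5' UTR and 128 (0.585%) in a 3' UTR. The other 6 genes, Slc11a2 among them, had no match to these letters. The search required all 5 arm pairs, so an element with an unpaired base in an arm would be missed. No match therefore says only that these letters are not in the annotated transcripts searched, and not that a gene lacks an element. The map of transcripts by distance shows where the elements lie.

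**Figure D1:**
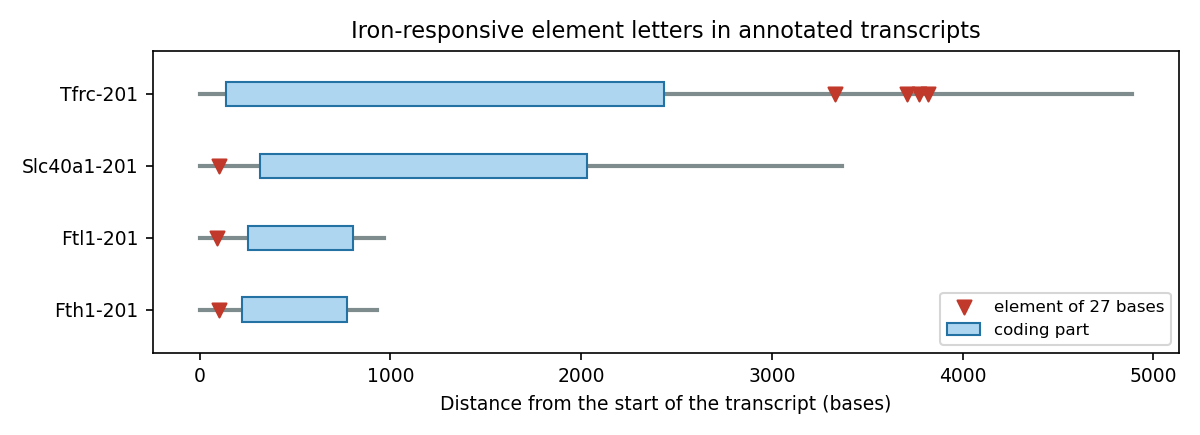
Map of the annotated transcripts of Tfrc, Slc40a1, Ftl1 and Fth1, by distance from the transcript start in bases. Boxes are coding parts and triangles are the elements of 27 bases; the 4 elements of Tfrc lie after its coding part, and the 1 element of each other transcript lies before it.

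Tfrc, Steap3 and Slc11a2, which act one after the other in iron entry, all had higher levels in STM2457. Normalised reads, used throughout, are reads recovered from the deposited log2 values and divided by a size factor that evens out library depth. Tfrc had 3866, 3844 and 3527 normalised reads in STM2457 replicates 1 to 3, against 1484, 1369 and 1365 in DMSO replicates 1 to 3. Every STM2457 library lay above every DMSO library. The means were 3746 ± 190 in STM2457 and 1406 ± 67.7 in DMSO (SD, n = 3 each). The fold was 2.66 with a 95% interval of 2.51 to 2.82, which makes no allowance for the choice of Tfrc by this rise. On the deposited log2 scale, which is shrunken towards the mean of the libraries, the difference was 0.81 (SE 0.03). Among tested genes with a mean of at least 100 reads, ranked by this shrunken difference, Plekho1 came next. Its log2 difference was 0.60 and its fold 2.29. Shrinkage is stronger for genes of few reads, so the order by fold can differ from this one. Pdgfrb, for example, ranked behind Plekho1. It had 147, 165 and 190 reads in STM2457 replicates 1 to 3, against 59, 71 and 65 in DMSO replicates 1 to 3.

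Steap3, the endosomal iron reductase gene, had 1829, 1899 and 1739 normalised reads in STM2457 replicates 1 to 3, against 1030, 958 and 984 in DMSO replicates 1 to 3. The groups did not overlap and the libraries within a group lay close together. It rose 1.84-fold (95% interval 1.71 to 1.97; limma adjusted p = 1.6e-13). Slc11a2, the gene of the transporter that carries the reduced iron out of the endosome, had 981, 998 and 992 normalised reads in STM2457 replicates 1 to 3, against 668, 700 and 655 in DMSO replicates 1 to 3. The groups did not overlap here either. It rose 1.47-fold (95% interval 1.35 to 1.59; limma adjusted p = 1.3e-09). All adjusted p-values are Benjamini-Hochberg values over the 12618 genes tested. Because all RNA came from bulk cultures, a lower or higher level in each cell and a shift in the mix of cells cannot be told apart.

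**Figure D2:**
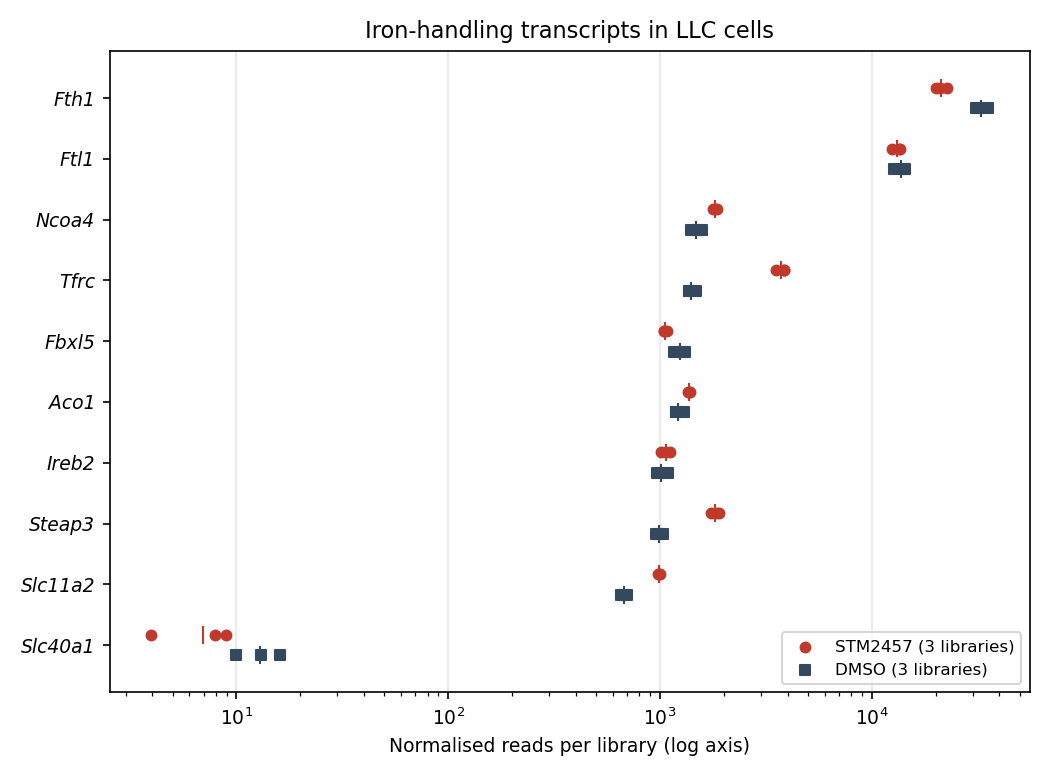
Normalised reads of each of the 10 transcripts (log axis) in each of 3 STM2457 libraries (circles) and 3 DMSO libraries (squares), with the group mean as a vertical line. Tfrc, Steap3 and Slc11a2 lie to the right in STM2457 and Fth1 to the left, while the points of Ftl1 and of Ireb2 overlap between groups.

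The heavy chain of ferritin fell while the light chain did not pass the test. Fth1 had 20892, 22709 and 20028 normalised reads in STM2457 replicates 1 to 3, against 32052, 35328 and 31171 in DMSO replicates 1 to 3. All STM2457 libraries lay below all DMSO libraries. Fth1 fell to 0.646 of the DMSO level (95% interval 0.556 to 0.750; limma adjusted p = 2.4e-08). Ftl1 had 12511, 13414 and 13542 normalised reads in STM2457 replicates 1 to 3, against 12771, 14266 and 14088 in DMSO replicates 1 to 3, so that the groups overlapped. Its fold was 0.960 (95% interval 0.923 to 0.998), from limma-voom on the recovered reads. The test on the deposited log2 values is a different fit, and there its limma adjusted p = 0.25. Limma-voom used as the test, with adjustment over all tested genes, gave Ftl1 no call either. With the libraries centred on their upper quartile the adjusted p of Ftl1 was 0.024, with median centring 0.029 and without DMSO replicate 1 0.019, each on the lower side. Both genes have near-identical processed copies, and how the authors' counting split reads between them is not known. The copy Ftl1-ps1 held 164 ± 18.7 normalised reads in STM2457 and 177 ± 21.8 in DMSO (SD, n = 3 each; limma adjusted p = 0.40). Ftl2-ps held means of 3.31 in STM2457 and 2.99 in DMSO. The Fth1 copy Fth-ps2 held 1.32 in STM2457 and 1.34 in DMSO, and both were too scarce to be tested.

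Set against each other within a library, the chains shifted. There were 167, 169 and 148 Fth1 reads per 100 Ftl1 reads in STM2457 replicates 1 to 3, against 251, 248 and 221 in DMSO replicates 1 to 3. Both groups varied by replicate and stayed apart. Tfrc stood at 18.5, 16.9 and 17.6 reads per 100 Fth1 reads in STM2457 replicates 1 to 3, against 4.63, 3.88 and 4.38 in DMSO replicates 1 to 3. The mean of this ratio was 4.12 times as high in STM2457 as in DMSO, a value that contains the rise for which Tfrc was chosen. Against Slc11a2, Tfrc stood at 394, 385 and 356 reads per 100 in STM2457 replicates 1 to 3, and at 222, 196 and 208 in DMSO replicates 1 to 3. The 2 ferritin transcripts together took from 0.188% to 0.203% of the reads in STM2457 libraries and from 0.253% to 0.283% in DMSO libraries.

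**Figure D3:**
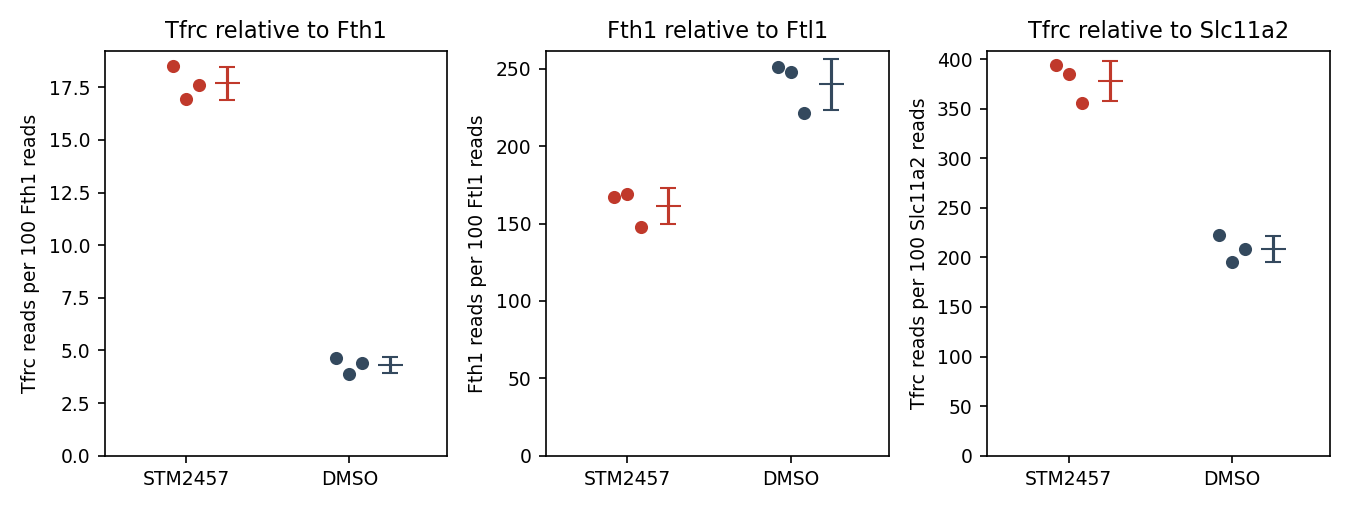
Ratios within each library, for STM2457 (left in each panel) and DMSO (right): Tfrc reads per 100 Fth1 reads, Fth1 reads per 100 Ftl1 reads and Tfrc reads per 100 Slc11a2 reads. Points are libraries and bars are the mean ± SD (n = 3 each); Tfrc per 100 Fth1 reads averaged 17.7 in STM2457 and 4.30 in DMSO.

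Ncoa4, the receptor that carries ferritin to the lysosome, had 1784, 1860 and 1811 normalised reads in STM2457 replicates 1 to 3, against 1576, 1395 and 1490 in DMSO replicates 1 to 3. The groups did not overlap. It rose 1.22-fold (95% interval 1.15 to 1.31; limma adjusted p = 6.7e-06). Slc40a1, the exporter gene, was hardly detected, with 8, 4 and 9 reads in STM2457 replicates 1 to 3, against 16, 10 and 13 in DMSO replicates 1 to 3. The STM2457 libraries were the lower ones, at counts too few to place the fold closer than 0.307 to 0.929 (95% interval around 0.534). Slc40a1 missed the level needed for the test, a mean of at least 10 reads on the log2 scale, and with no such filter its limma adjusted p = 0.064.

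Of the genes that sense iron, Aco1 rose, Fbxl5 fell and Ireb2 did not pass the test. Aco1, which encodes the cytosolic aconitase that turns into an RNA-binding protein when it loses its iron-sulfur cluster, had 1387, 1374 and 1358 normalised reads in STM2457 replicates 1 to 3, against 1294, 1189 and 1184 in DMSO replicates 1 to 3. It rose 1.12-fold (95% interval 1.05 to 1.21; limma adjusted p = 0.0029), a call that was lost with upper-quartile centring (adjusted p = 0.057). Ireb2 had 1113, 1006 and 1070 normalised reads in STM2457 replicates 1 to 3, against 1096, 966 and 977 in DMSO replicates 1 to 3. The groups overlapped. Its fold was 1.05 (95% interval 0.974 to 1.13; limma adjusted p = 0.27), and without DMSO replicate 1 it passed as higher (adjusted p = 0.042). Fbxl5, the iron-sensing subunit of a ubiquitin ligase, had 1039, 1077 and 1047 normalised reads in STM2457 replicates 1 to 3, against 1169, 1273 and 1307 in DMSO replicates 1 to 3. All STM2457 libraries were the lower ones. It fell to 0.845 of the DMSO level (95% interval 0.785 to 0.909; limma adjusted p = 1.4e-04).

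**Figure D4:**
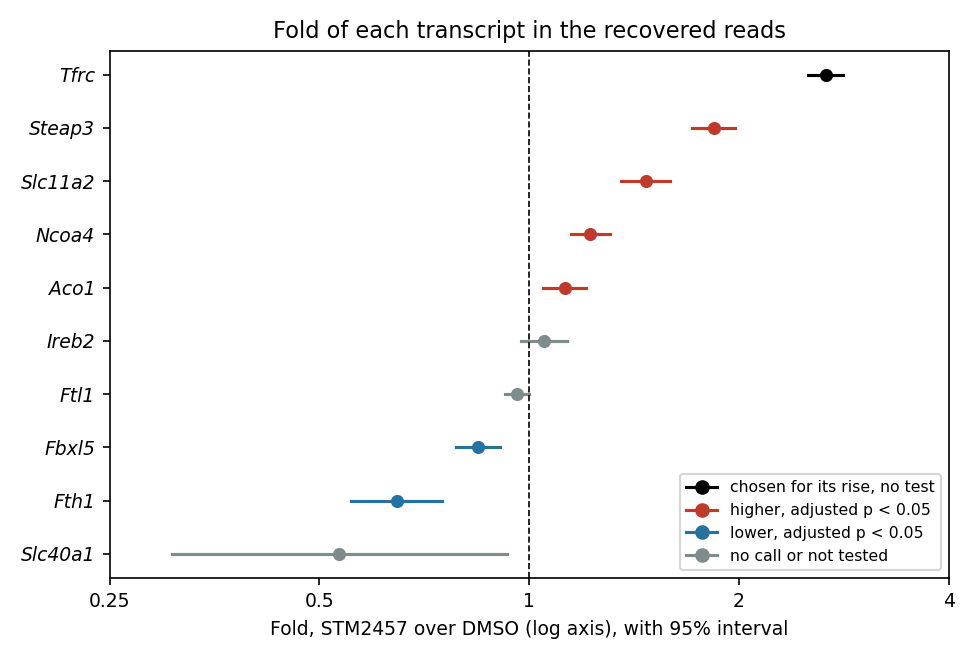
Fold of each transcript, STM2457 over DMSO (log axis), from limma-voom on the recovered reads, with its 95% interval. Tfrc (black) stands at 2.66, and its interval makes no allowance for its choice by this rise. Fth1 stands at 0.646. The intervals of Fth1, at 0.556 to 0.750, and of Slc40a1, at 0.307 to 0.929, are wide.

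Of the 8 genes besides Tfrc that were tested, 4 rose (Steap3, Slc11a2, Ncoa4, Aco1) and 2 fell (Fth1, Fbxl5). Over all 12618 genes tested, 30.7% rose and 25.7% fell (56.3% in either direction), so that a call by itself was common in this comparison, and in 61.8% of all tested genes the groups did not overlap. The split of calls depended on the scaling, with 3868 genes higher and 3240 lower as deposited, 2941 and 4621 with median centring, and 2819 and 4814 with upper-quartile centring. Those centrings moved the log2 difference of every gene by -0.03 and -0.04. In the deposited values the log2 differences of the called genes besides Tfrc ran from -0.38 for Fth1 to 0.49 for Steap3, and the median over all tested genes was 0.00379.

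Levels of different transcripts were compared per length, as RPKM over the length of the annotated principal transcript. In STM2457 the order was Fth1 (1283 ± 82.8), Ftl1 (764 ± 32.6), Tfrc (43.1 ± 2.18), Steap3 (34.9 ± 1.54), Ncoa4 (30.6 ± 0.652), Fbxl5 (20.7 ± 0.396), Aco1 (20.1 ± 0.207), Slc11a2 (18.4 ± 0.155), Ireb2 (10.4 ± 0.528) and Slc40a1 (0.116 ± 0.0437). In DMSO it was Fth1 (1988 ± 133), Ftl1 (796 ± 47.4), Ncoa4 (25 ± 1.53), Fbxl5 (24.6 ± 1.41), Steap3 (19.0 ± 0.694), Aco1 (17.9 ± 0.908), Tfrc (16.2 ± 0.778), Slc11a2 (12.5 ± 0.429), Ireb2 (9.87 ± 0.70) and Slc40a1 (0.217 ± 0.0509; SD, n = 3 throughout). By this length Tfrc stood behind only the ferritins in STM2457, and below Ncoa4, Fbxl5, Steap3 and Aco1 as well in DMSO. In DMSO the libraries of Ncoa4 and Fbxl5 overlapped, as did those of Steap3 and Aco1. The order depends on the length used. Over all annotated exons joined, Tfrc (12.8) stood above Steap3 (9.74), Ncoa4 (8.93) and Fbxl5 (7.21) in DMSO and below Aco1 (15.3) and the ferritins. By that length Fth1 came to 344 in STM2457 and 532 in DMSO, and Ftl1 to 552 in STM2457 and 575 in DMSO.

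Other genes of iron and heme handling were listed by role, and 84 of them passed the level filter. Of the 84, 28 rose (33.3%) and 22 fell (26.2%), close to the shares over all tested genes, so these counts are no result about iron genes as a group. With median centring 22 rose and 26 fell, and with upper-quartile centring 22 and 27. The plot of folds by role shows both directions in most roles.

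**Figure D5:**
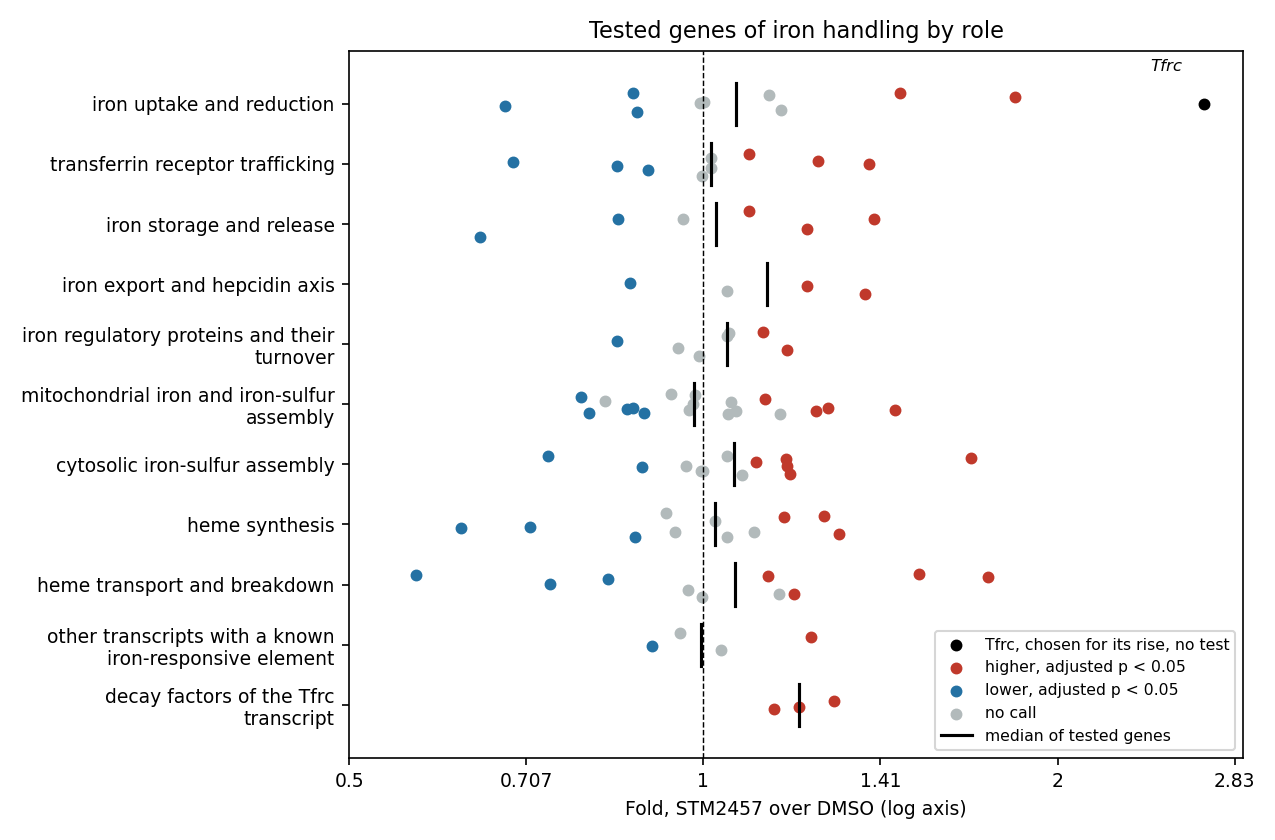
Fold of each tested gene of 11 role lists, STM2457 over DMSO (log axis), 1 point a gene, coloured by the call of limma on the deposited values, with the median of the list, Tfrc included, as a line. Tfrc, in black, stands at 2.66; called genes lie on both sides of 1 in each list but the last, where all 3 are higher.

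Among the genes of uptake and reduction that were tested besides Tfrc, Steap3 and Slc11a2 were the higher ones. The 3 lower ones were Hfe, whose protein binds the transferrin receptor (116 ± 11.1 in STM2457 and 171 ± 11.7 normalised reads in DMSO, limma adjusted p = 6.7e-05), the metalloreductase gene Steap2 (0.877-fold, 6.5e-04) and the lysosomal channel gene Mcoln1 (0.871-fold, 0.0013). Steap1 (adjusted p = 0.98) and the zinc and iron transporter gene Slc39a14 (0.87) did not pass. By RPKM over the principal transcript Steap2 stood at 75.7 in STM2457 and 86.4 in DMSO, above Steap3 at 34.9 and 19.0. The rise of Steap3 was thus not shared by its more abundant relative. Of 9 tested genes for the traffic of the receptor, 3 rose and 3 fell. The recycling gene Ehd1 rose 1.38-fold (1.0e-10) and Rab12 1.25-fold (7.7e-07), whereas Picalm, a clathrin adaptor gene, fell to 0.844 (4.6e-06) and the exocyst gene Exoc6 to 0.690 (6.8e-06).

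Of 6 tested genes of storage and release, 3 rose and 2 fell, Ncoa4 and Fth1 among them. The iron chaperone genes Pcbp1 and Pcbp2 went in different directions, with Pcbp1 at 8255 ± 343 in STM2457 and 5914 ± 300 normalised reads in DMSO, and Pcbp2 at 11178 ± 207 in STM2457 and 13215 ± 184 in DMSO (SD, n = 3 each; limma adjusted p = 7.3e-10 and 3.0e-06 in that order). For export and the hepcidin axis 4 of 13 genes were tested, of which Neo1 (1.37-fold, adjusted p = 2.2e-09) and Acvr1 (1.22-fold, 1.5e-04) rose and Bmpr1a (0.866-fold, 5.1e-04) fell. Acvr1 and Bmpr1a encode receptors of bone morphogenetic proteins, and the product of Neo1 binds hemojuvelin. In the list of iron regulatory proteins and their turnover 2 of 7 rose and 1 fell, namely Aco1, Fbxl5 and Cul1, the scaffold of the ligase that FBXL5 joins, which rose 1.18-fold (8.7e-06).

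Iron-sulfur clusters, which are built in mitochondria and passed on in the cytosol, are a main use of cell iron. Of 18 tested mitochondrial genes, 4 rose and 5 fell. Glrx5, a glutaredoxin that relays clusters, rose to 1286 ± 67.3 in STM2457, against 884 ± 53.1 normalised reads in DMSO (SD, n = 3 each; limma adjusted p = 4.4e-09), and the scaffold gene Iscu rose 1.25-fold (1.4e-05). The mitochondrial iron importer gene Slc25a37 fell to 0.787 (8.3e-08) and the chaperone gene Hspa9 to 0.799 (5.1e-08). Of 12 genes of the cytosolic pathway, 5 rose and 2 fell. The scaffold gene Nubp2 rose 1.69-fold (6.2e-13), and Ciao1 rose 1.18-fold (1.5e-04), as did Ndor1 (1.18-fold, 2.1e-04). Mms19, which hands clusters to enzymes of DNA metabolism, fell to 0.738 (1.4e-09).

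Heme synthesis had 3 genes higher and 3 lower of 11 tested. Cpox fell to 1222 ± 84.3 in STM2457, against 1962 ± 135 normalised reads in DMSO (SD, n = 3 each; limma adjusted p = 1.4e-09), and Ppox, the next enzyme in the pathway, fell to 0.713 (8.6e-08). Tmem14c, needed for porphyrin import, rose 1.27-fold (1.5e-06) and the mitochondrial transporter gene Abcb10 1.30-fold (4.0e-05). For heme transport and breakdown 4 of 10 rose and 3 fell. Hmox1, the inducible heme oxygenase gene, fell to 2257 ± 135 in STM2457, against 3986 ± 572 normalised reads in DMSO (adjusted p = 0.0039), whereas its constitutive relative Hmox2 rose 1.53-fold (1.9e-11). The heme exporter gene Flvcr1 rose 1.74-fold (1.3e-11) and the heme transporter gene Slc48a1 fell to 0.741 (1.1e-05), as did the biliverdin reductase gene Blvrb to 0.830 (8.3e-05).

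Among other transcripts known to carry an iron-responsive element, 1 of 4 tested rose (Cdc14a, 1.23-fold, adjusted p = 0.0031) and 1 fell (Cdc42bpa, 0.905-fold, 0.0049). Besides the genes whose hairpins are printed, 22 tested genes held the searched letters in a 5' UTR, of which 7 were higher (31.8%) and 7 lower (31.8%), and 84 in a 3' UTR, of which 29 were higher (34.5%) and 15 lower (17.9%). Over all tested genes the shares were 30.7% and 25.7%. These sets were drawn up after the values were known, and no test was made of them. The 3 genes listed as decay factors of the Tfrc transcript were called higher, as were 30.7% of all tested genes, and a list of 3 shows nothing about such factors as a group. The values were Rc3h1 at 1.29-fold (5.0e-05), Rc3h2 at 1.21-fold (0.0012) and Zc3h12a at 1.15-fold (0.024). Zc3h12a encodes a ribonuclease known to cut the Tfrc transcript, and Rc3h1 and Rc3h2 encode RNA-binding proteins of the Roquin family. The call of Zc3h12a was lost with upper-quartile centring (adjusted p = 0.18) and median centring (0.12), and without any of STM2457 replicates 2 (0.10) or 3 (0.074) or DMSO replicates 1 (0.17) or 3 (0.064).

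The genes whose deposited log2 values followed those of Tfrc most closely over the 6 libraries, by Pearson correlation, were Ctsz (0.9998), Hars (0.9998), Eya3 (0.9995), Foxn2 (0.9994) and Umps (0.9994). They are 5 of 9436 named genes with a mean of at least 100 reads, of which 1726 had a correlation above 0.95, so such values mark a difference between the groups with little spread around it. Their folds were 1.29, 1.14, 1.18, 1.32 and 1.92 in that order, all below the 2.66 of Tfrc. By the same measure, over 6 libraries that share 2 groups, Steap3 had a correlation of 0.999 with Tfrc, Slc11a2 0.990, Ncoa4 0.951, Aco1 0.919, Ireb2 0.471, Ftl1 -0.485, Fbxl5 -0.934 and Fth1 -0.963.

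The libraries held 17877627 to 17917207 reads in genes in STM2457 and 17671702 to 17679471 in DMSO, so that an unseen transcript could have held up to 3 reads, or 0.170 CPM (counting error only). Mettl3 had 488 ± 32.5 normalised reads in STM2457 and 537 ± 66.0 in DMSO (SD, n = 3 each; limma adjusted p = 0.15). The labels give lung as the tissue. Of 7 markers of lung epithelium 2 (Nkx2-1, Sftpa1) had no reads and only Ager averaged 10 reads or more. Of 6 general epithelial markers, Epcam and Cdh1 had no reads, and Krt8, Krt18, Krt19 and Krt7 had at most 8 in a library. These 6 together came to 0.335 to 0.951 CPM in STM2457 and 0.962 to 1.075 in DMSO. The erythroid markers Hba-a1, Hba-a2, Hbb-bs and Hbb-bt, and the leukocyte markers Adgre1, Itgam and Cd3e, also had no reads. Summed, the 8 erythroid markers came to 1.17 to 1.90 CPM in STM2457 and 1.41 to 1.70 in DMSO, and the 8 leukocyte markers, mostly Cd68, to 5.2 to 6.59 in STM2457 and 5.32 to 6.67 in DMSO. The mesenchymal list, nearly all Vim, came to 2596 to 2650 in STM2457 and 2964 to 3071 in DMSO, and its part in the results was not tested. Of the other genes of that list, Pdgfrb went the other way, with 147, 165 and 190 reads in STM2457 replicates 1 to 3, against 59, 71 and 65 in DMSO replicates 1 to 3 (called higher), while Lum was called lower and Pdgfra and Dcn did not pass. In DMSO replicate 2 the log2 ratio to the mean of DMSO replicates 1 and 3 ran from -0.14 for Ncoa4 to 0.16 for Fth1, apart from the scarce Slc40a1, at -0.55. Without that library Tfrc kept a log2 difference of 0.80 in the deposited values, and Fth1 one of -0.34.

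In the GRCm38 annotation Tfrc lies on chromosome 16 from 32608920 to 32632794 (plus strand), Fth1 on chromosome 19 from 9980598 to 9985098 (plus), Steap3 on chromosome 1 from 120190757 to 120272705 (minus) and Slc11a2 on chromosome 15 from 100387898 to 100425072 (minus). Whether the counting used strand is not stated in the sources. The exons of Fbxl5, Ftl1 and Slc11a2 overlap a gene on the other strand, Bst1, Gm10252 and Gm5475 in that order. These held means of 0.661, 20.5 and 0.331 normalised reads in STM2457, against 0.335, 16.0 and 0.331 in DMSO. Of the other genes named by role, Abcb10, Bmpr1a, Cdc14a, Cdc42bpa, Cpox, Cul1, Flvcr1, Hmox2, Mms19, Ndor1, Pcbp1, Pcbp2, Ppox, Slc25a37 and Slc48a1 have such an overlap, and for these the reads of both strands may be mixed.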

How the data were processed

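Per the labels, total RNA of 6 samples, 3 a group, was extracted with TRIzol and made into libraries using SMARTER reagents. Per the submitters' processing notes, FastQC 0.11.9, HISAT2 2.2.1, featureCounts 2.0.1 and DESeq2 were used with GRCm38; their settings, the annotation and the transform are not stated in the sources. The authors deposited log2 values, 1 column a library, with 31229 of 55367 genes listed at 0 in all 6. From the values, they have the form of a regularised log2 transform, whose equations were inverted (ridge penalty 60.2) to recover reads. Of the values of genes with a mean under 500 reads, 98.6% came out whole within 0.05 reads, against 87.7% for means of 500 to 2000 reads and 68.6% above. Of the 10 genes, 8 lay within 0.0912 reads of whole numbers. For Fth1 and Ftl1 the distances reached 0.411 and 0.474, so whole reads could not be told for these.

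Genes averaging 3.32 or more in the deposited values (10 reads) were tested with limma 3.58.1 (lmFit; eBayes with trend and robust priors) in R 4.3.3, Benjamini-Hochberg adjusted, threshold 0.05. Folds and their 95% intervals come from limma-voom on recovered reads of all 24138 genes with a read. The tests were tried on simulated data, made with the same fitted transform and with a spread between libraries that was set by hand. That trial therefore cannot show that the transform was inferred rightly, and no result here rests on it. The 10 genes, the role lists and the tests were chosen with earlier results of these data known. Named from each role list were up to 4 called genes of smallest adjusted p, genes whose call depends on a setting, and the 5 genes most like Tfrc. Steap1, Slc39a14, Mcoln1, Hmox1 and the ferritin copies were added after their values were seen. Some genes of the lists are not reported here by name. Transcripts and coordinates are from GENCODE M21. Alternatives were other filters, centrings, priors, recovered reads, a replicate block and leaving out each library.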

Additional observations from a re-analysis of the deposited data

How the results depend on the processing

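Across 14 alternatives, Fth1, Slc11a2, Fbxl5, Steap3 and Ncoa4 kept their direction and their call, with adjusted p-values up to 0.0027. Over 92 iron genes besides Tfrc, 19 lost or gained a call in at least 1 alternative and none changed sign while called. Among these, calls of Abcb8, Aco1, Blvra, Ciao3, Fdxr, Herc2, Nfs1, Nubp1, Vps35 and Zc3h12a were lost, and Cisd2, Fech, Ftl1, Hscb, Iba57, Ireb2, Pgrmc1 and Skp1a gained one. The log2 difference of Tfrc was 0.81 in the deposited values and 1.41 both by limma-voom and by limma-trend on the recovered reads, since the deposited values are shrunken, and from 0.79 to 0.83 with any library left out. Of the 8 genes tested beside Tfrc, 6 were called, and 6 to 8 with any library left out. Over the role lists without the 10 genes, 28 were higher and 22 lower, with 22 and 27 by upper-quartile centring. Same-numbered libraries did not deviate together (correlations of 0.0501, 0.011 and 0.0399). Fitting the replicate number as a block gave 3864 genes higher and 3226 lower over all tested genes, against 3868 and 3240 without. Of the 10 genes, depth limits Slc40a1 most, with at most 16 reads in a library.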

Other observations

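Myc and Hif1a, whose proteins are known as activators of Tfrc transcription, were lower, not higher. Myc had 8658 ± 38.8 normalised reads in STM2457 and 12920 ± 1634 in DMSO (limma adjusted p = 0.0032), and Hif1a 4503 ± 69.0 in STM2457 and 5667 ± 143 in DMSO (adjusted p = 3.9e-08; SD, n = 3 each). Both were chosen after their values were seen, and their part in the rise of Tfrc was not tested.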
